A study of Mus musculus with 20 samples.

Results

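Collagen transcripts of the mouse uterus were followed 2 and 24 hr after estradiol (E2), bisphenol A (BPA), or HPTE, the estrogenic metabolite of the pesticide methoxychlor. Members were the genes whose array name is Col, a number, the letter a, and a number. The rule found 41 of the 27962 gene names on the array, of which 40 are collagen chains. The other name, Col4a3bp, is ceramide transfer protein and was set aside. Each gene was represented by its probe with the highest mean log2 intensity over the 20 arrays. The chains fell into 11 fibrillar, 6 type IV, 3 type VI, 2 multiplexin, 9 FACIT (fibril-associated), 3 short-chain network, and 4 transmembrane collagens, the anchoring fibril gene Col7a1, and Col28a1. The probes of 36 chains were well above background on all 20 arrays and were tested. Col9a1, Col10a1, Col19a1, and Col28a1 were not well above background on every array of any group and were not tested.

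All mice were adult C57bl6/J females, at least 10 weeks old, ovariectomized, and left for 10 to 14 days, so every group lacked ovaries. Each was injected subcutaneously with 100 µl of sesame oil alone (vehicle, 3 uteri), or with 250 ng E2 (3 uteri at 2 hr and 2 at 24 hr), 750 µg BPA (3 and 3), or 750 µg HPTE (3 and 3). RNA of each uterus was hybridized to its own single-color array. The vehicle arrays, which the labels place at 24 hr, were the controls of both times, so all contrasts with vehicle share them.

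Collagens are the main structural proteins of connective tissue, made as chains that wind into a triple helix after hydroxylation of their prolines and lysines. Types I, III, and V form the fibrils of the endometrial stroma and the muscle wall, type IV forms the sheet of the basement membrane under epithelium and around vessels and muscle cells, and type VI forms beaded filaments that lie between fibrils and basement membrane. In the ovariectomized rodent, estrogen is known to cause a rapid uptake of water by the uterus within hours and growth of the tissue about a day later, with remodeling of the matrix.

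The defining genes of the uterus (Esr1, Pgr, Hoxa10, Hoxa11), its epithelium, stroma, and smooth muscle were well above background on every array. Some arrays held transcripts of other cells. The sum of 6 sperm genes was 169949 in vehicle replicate 1 and 51442 to 55718 in the other vehicle arrays, against 513 to 20857 in the treated arrays. The sum of 5 pancreas genes reached 2142120 and 112569 in E2 2 hr replicates 2 and 3 and 3169 and 8410 in the E2 24 hr arrays, against 306 to 722 on the others, the first E2 2 hr array included. The sum of 5 leukocyte genes was 129256 in BPA 2 hr replicate 1 and 7129 to 25697 elsewhere. All intensities are in arbitrary units after scaling to the 75th percentile of each array. Among groups of 3 arrays, the lowest value of the group came from E2 2 hr replicate 2 for 24 of the 36 collagens, from BPA 24 hr replicate 2 for 23, and from HPTE 2 hr replicate 2 for 21, and the highest came from BPA 2 hr replicate 3 for 21. The part that these array differences had in the results was not tested.

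E2 changed most collagens at 24 hr and few at 2 hr. At 2 hr, limma called 2 collagens higher and 1 lower than vehicle after E2 at an adjusted p under 0.05 (8.33% of 36, against 28.1% of all tested probes, 11.1% higher and 17.0% lower). BPA gave 4 higher and 8 lower (33.3%, against 49.4% of probes, 19.3% higher and 30.2% lower), and HPTE 5 higher and 6 lower (30.6%, against 48.1%, 19.9% higher and 28.2% lower). The share of collagens was below that of all probes in each 2 hr contrast.

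At 24 hr, E2 gave 17 higher and 14 lower (86.1% of collagens, against 63.8% of probes, 26.3% higher and 37.6% lower), and HPTE 18 higher and 6 lower (66.7%, against 34.0%, 14.9% higher and 19.1% lower). BPA gave 4 higher and 3 lower (19.4%, against 13.1%, 5.09% higher and 8.03% lower). The median collagen log2 change at 24 hr was 0.44 after E2, 0.23 after BPA, and 0.36 after HPTE, beside -0.15, -0.03, and -0.06 for all tested probes. Across the 7 groups, the moderated F test called 33 of 36 collagens, against 81.4% of probes. The whole uterus was measured, so fewer cells of a type and less RNA per cell cannot be told apart in any of these values.

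The 20 arrays lay on 6 slides, and the 24 hr calls differed in how far they held when arrays were left out or slides were modeled. Of the 31 calls for E2, 26 held without any single array, and 28 with the slide as a term in the model. Of the 24 for HPTE, 20 held without any single array but only 9 with the slide term. Scaling to spike-in probes gave 4 HPTE calls, all lower, and put the median change of all probes for HPTE at 24 hr at -0.36. Of the 7 for BPA, Col22a1 alone held in either case, and the count ran from 1 without BPA 24 hr replicate 1 to 13 without replicate 2, with 2 without BPA 24 hr replicate 3 or vehicle replicate 1. The split of higher and lower calls moved with the scaling. With no scaling it was 0 and 9 for E2 and 5 and 1 for HPTE at 2 hr, and 1 and 3 for BPA and 11 and 7 for HPTE at 24 hr. With spike-in scaling it was 0 and 1 for E2, 2 and 1 for BPA, and 2 and 1 for HPTE at 2 hr, and 0 and 1 for BPA at 24 hr. With quantile normalization it was 2 and 4 for E2 and 5 and 4 for HPTE at 2 hr. For E2 at 24 hr it was 17 and 13 with quantile normalization, 17 and 14 without scaling, 15 and 9 scaled to spike-ins, and 15 and 8 after normexp background correction. No call turned its direction under these scalings, and 4 BPA calls at 2 hr did after normexp. On every slide that carried both a vehicle and a treated array, each called collagen differed in the direction of its call. These differences come from the same arrays as the calls, so their direction is no separate test of the calls.

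**Figure D1:**
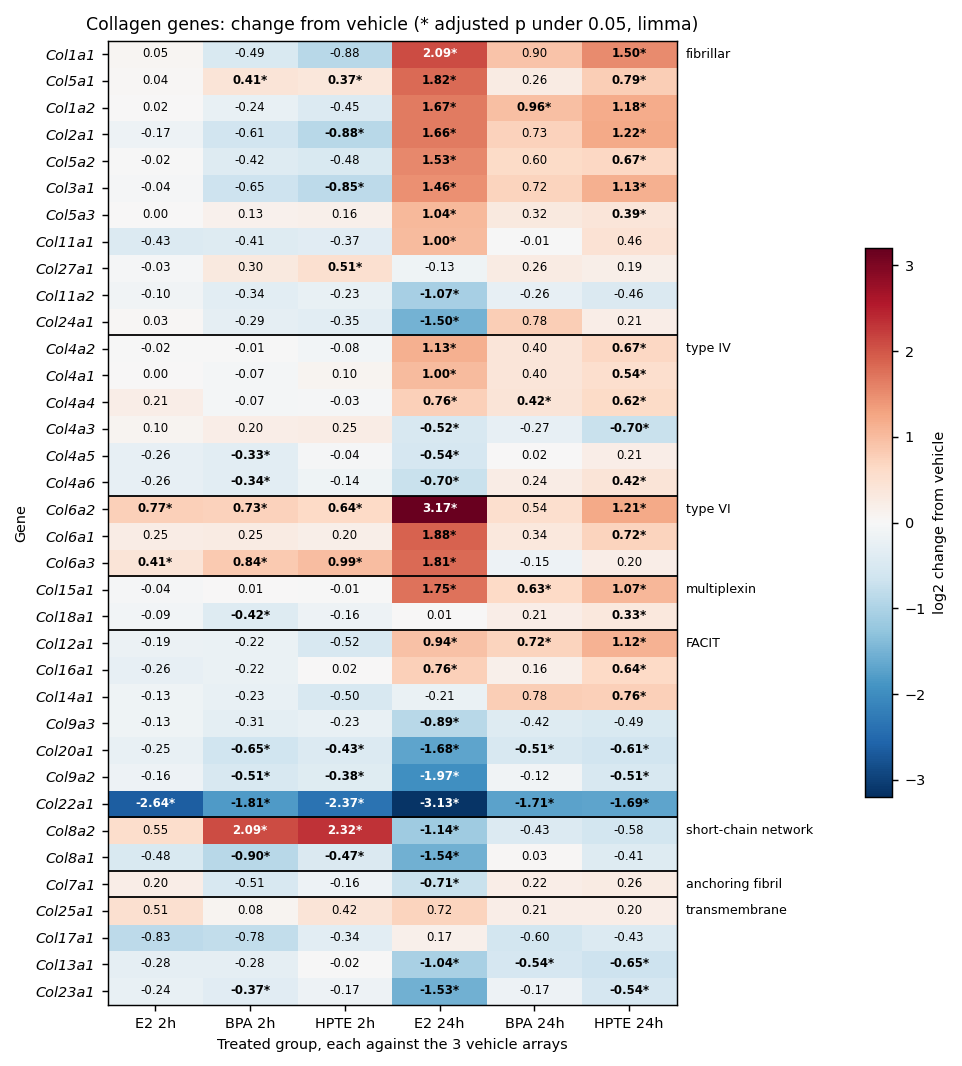
Heat map of the log2 change of the 36 tested collagens from vehicle in the 6 treated groups, in rows by collagen class, with an asterisk where limma called the change (adjusted p under 0.05). The E2 24 hr column holds 31 called genes, with the fibrillar and type VI rows mostly higher and the lower part of the map mostly lower, and the E2 2 hr column holds 3.

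Among the fibrillar collagens, 8 of 11 rose and 2 fell 24 hr after E2 (median log2 change 1.46), and 7 rose after HPTE (median 0.67). BPA raised only Col1a2 at 24 hr, although 7 of the 11 had an unadjusted p under 0.05 and the median was 0.60. None of the 11 passed the test 2 hr after E2 (median -0.02, none with an unadjusted p under 0.05).

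Col1a1 and Col1a2 encode the chains of type I collagen, the main fibril protein. The Col1a1 probe, at chr11:95060800-95060859 (plus strand, mm7, as for all probe positions), read 35571, 30035, and 42476 in the vehicle uteri, 140843 and 162901 in the 2 E2 uteri at 24 hr, 84129.9, 40557, and 86693 after BPA, and 105017, 104528, and 94320.1 after HPTE. At 2 hr it read 52979, 29890.5, and 32049 after E2, 20184, 15754, and 51055 after BPA, and 19762, 15899, and 23089.5 after HPTE. All E2 and HPTE values at 24 hr lay above all vehicle values, while 1 BPA array at 24 hr lay within them. At 24 hr Col1a1 rose 4.25-fold after E2 (2.09 ± 0.42, adjusted p = 4.5e-04; changes are log2 ± SE) and 2.84-fold after HPTE (1.504 ± 0.37, adjusted p = 0.0064). The BPA value was 0.90, adjusted p = 0.13, and without BPA 24 hr replicate 2 it passed at 1.26 (adjusted p = 0.044). With the slide term the HPTE value was 1.03 (adjusted p = 0.11).

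Col1a2 (probe at chr6:4493505-4493564, plus strand) read 80875, 89101, and 89860.4 in vehicle, 254842 and 295483 at 24 hr of E2, 202200.0, 114736, and 205754 of BPA, and 213550.0, 196216, and 178793 of HPTE, with no overlap between vehicle and any 24 hr group. At 2 hr its values were 87434, 85996, and 90625 after E2, 63527, 57325, and 107200.0 after BPA, and 66126, 52687, and 73587 after HPTE. At 24 hr it rose 3.17-fold after E2 (1.67 ± 0.26, adjusted p = 4.0e-05), 1.95-fold after BPA (0.96 ± 0.23, adjusted p = 0.013), and 2.26-fold after HPTE (1.18 ± 0.23, adjusted p = 0.0013). The BPA call was lost with the slide term, at 0.85 (adjusted p = 0.11), and the HPTE call at 0.98 (adjusted p = 0.051). Without BPA 24 hr replicate 1 the BPA value was 0.83 (adjusted p = 0.070).

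Col3a1, the chain of type III collagen of stretchable tissues, rose at 24 hr after E2 (1.46 ± 0.35, adjusted p = 0.0018) and HPTE (1.13 ± 0.31, adjusted p = 0.012) and was 0.72, adjusted p = 0.15 after BPA. With the slide term the HPTE value at 24 hr was 0.81 (adjusted p = 0.17), not called. It was lower 2 hr after HPTE (-0.85 ± 0.31, adjusted p = 0.036), a call that was lost without HPTE 2 hr replicates 1 or 2 or any vehicle array and with the slide term (-0.64, adjusted p = 0.16). BPA at 2 hr gave -0.65, adjusted p = 0.096, and without BPA 2 hr replicate 3 the value passed at -1.11 (adjusted p = 0.0013). Without that array Col1a1, Col1a2, Col2a1, and Col5a2 also passed at 2 hr, and the BPA count went from 12 to 18.

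The type V chains join type I fibrils and help to set their width. Col5a1 read 8960.4, 7704, and 8791 in vehicle, 29869 and 29959 24 hr after E2, 10710.5, 7802, and 12349.5 after BPA, and 15102, 16418, and 12666 after HPTE. The 2 hr values were 8784, 7828, and 9531 after E2, 11688, 10659, and 11415 after BPA, and 10719.5, 10456, and 11758 after HPTE. The BPA and HPTE arrays at 2 hr all lay above the vehicle arrays and those of E2 did not. It rose 3.53-fold at 24 hr of E2 (1.82 ± 0.16, adjusted p = 1.3e-07) and 1.73-fold at 24 hr of HPTE (0.79 ± 0.14, adjusted p = 6.7e-04), and both calls held without any single array and with the slide term. The 2 hr calls for BPA (0.41 ± 0.14, adjusted p = 0.025) and HPTE (0.37 ± 0.14, adjusted p = 0.040) did not hold without single arrays: they were lost without BPA replicates 1 or 3 or vehicle replicate 2, and when any of the 6 arrays in the HPTE contrast was left out.

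Col5a2 rose at 24 hr after E2 (1.53 ± 0.25, adjusted p = 8.0e-05) and HPTE (0.67 ± 0.23, adjusted p = 0.032), and Col5a3 likewise (1.04 ± 0.13, adjusted p = 4.8e-06 and 0.39 ± 0.11, adjusted p = 0.017). Both HPTE calls were lost without HPTE 24 hr replicates 1 or 2 or vehicle replicates 1 or 2, and with the slide term. The values after BPA at 24 hr were 0.60, adjusted p = 0.095 and 0.32, adjusted p = 0.084. A second Col5a3 probe was not called at 24 hr after E2 (0.48) or HPTE (-0.11), so both Col5a3 calls depend on the probe.

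Other fibrillar genes went apart. Col11a1, a type XI chain, rose 24 hr after E2 (1.003 ± 0.28, adjusted p = 0.0057), while Col11a2 fell (-1.07 ± 0.19, adjusted p = 1.6e-04). Vehicle replicate 1 was high for both genes, and without it the changes were 1.45 and -0.79, both called. Col24a1, a chain of minor fibrils, also fell at 24 hr of E2 (-1.502 ± 0.39, adjusted p = 0.0031) and was 0.78, adjusted p = 0.15 after BPA. Col27a1, known from cartilage, was called only 2 hr after HPTE (0.51 ± 0.14, adjusted p = 0.0061).

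Col2a1, the chain of cartilage collagen, read 1822, 1482, and 1831 in vehicle, 5398 and 5341 at 24 hr of E2, 3321, 1811, and 3783 of BPA, and 4268, 4047, and 3588 of HPTE. At 2 hr it read 2136, 1064, and 1539 after E2, 849, 778, and 2097 after BPA, and 1026, 826, and 935 after HPTE, the last group lying below every vehicle array. The log2 change was 1.66 ± 0.38, adjusted p = 0.0014 for E2 at 24 hr, 1.22 ± 0.34, adjusted p = 0.013 for HPTE at 24 hr, and -0.88 ± 0.34, adjusted p = 0.044 for HPTE at 2 hr, the last lost when any of its 6 arrays was left out. With the slide term neither HPTE value was called, at 0.75 (adjusted p = 0.20) and -0.72 (adjusted p = 0.11). A second probe that shares 40 bases with this one gave no call in any contrast and changes of -0.84 after E2 and -0.79 after HPTE at 24 hr. Vehicle replicate 1 was high for it, and the changes were -0.28 and -0.22 without that array, not called, and -1.14 and -1.08 without vehicle replicate 2, both called lower. The probes of Col2a1 thus disagree. Of 5 cartilage markers, 3 were tested, and only Comp, which also binds fibrillar collagen in other tissues, was called: it fell in all 6 contrasts (-3.19 at 24 hr of E2). The sum of the cartilage markers was 560 to 1099 in vehicle and 177 to 178 at 24 hr of E2.

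The Col2a1 probes, from the minus strand of chromosome 15 (mm7), are shown with the shared stretch in capitals, since they overlap and still differ in their changes. The probe used lies at chr15:97979237-97979296 and the second at chr15:97979257-97979316.
Col2a1 probe used: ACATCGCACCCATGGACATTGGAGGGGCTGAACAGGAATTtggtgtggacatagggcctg
Col2a1 second probe: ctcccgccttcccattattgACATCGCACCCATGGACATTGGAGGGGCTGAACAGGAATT

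**Figure D2:**
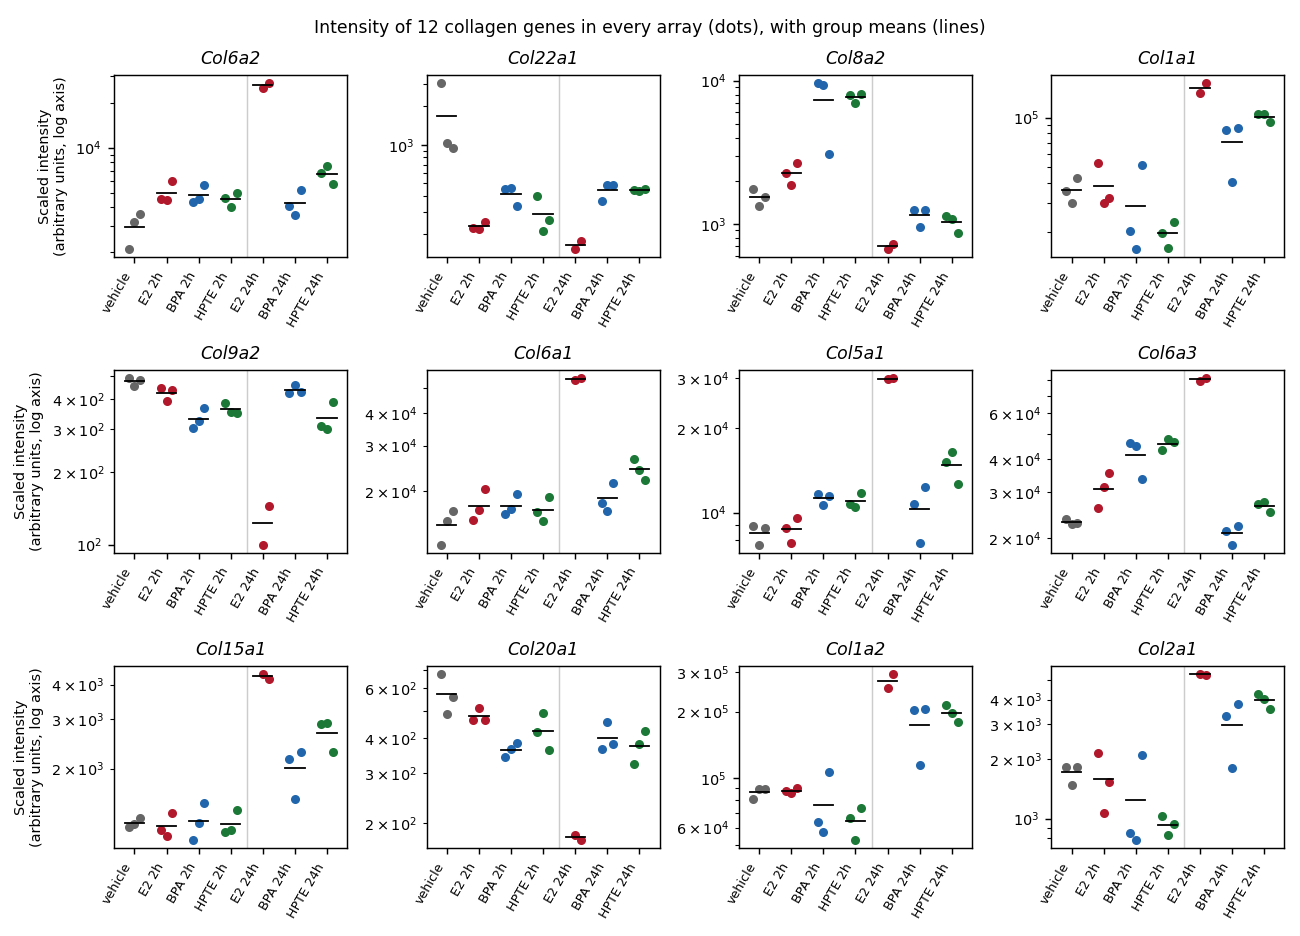
Scaled intensity (arbitrary units, log axis) of the 12 collagens with the largest called changes on each of the 20 arrays, with 1 panel per gene, 1 dot per uterus, and a line at the arithmetic mean intensity of each group. Col6a2 stands above all other groups in the 2 E2 24 hr uteri, Col8a2 is high in the BPA and HPTE 2 hr groups, and Col22a1 is highest in vehicle replicate 1.

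All 3 type VI chains rose 24 hr after E2 (median log2 change 1.88), the largest median of the classes tested. HPTE raised Col6a1 and Col6a2 at 24 hr, and limma called none of the class after BPA at that time (2 of 3 had an unadjusted p under 0.05, median 0.34). At 2 hr, Col6a2 and Col6a3 were called higher after each of the compounds, the only collagens so called by the probe chosen for the gene.

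Col6a2 (probe at chr10:76251837-76251896, minus strand) read 2097, 3202, and 3593 in vehicle and 25046 and 27176 24 hr after E2, against 4059, 3515, and 5226 after BPA and 6772, 7591, and 5749.7 after HPTE. At 2 hr it read 4515, 4440.4, and 5983 after E2, 4303, 4553, and 5634 after BPA, and 4628, 3977, and 4998 after HPTE. Every treated array but 1, of BPA at 24 hr, lay above every vehicle array. The E2 24 hr change was 9.03-fold (3.17 ± 0.22, adjusted p = 2.0e-08), the largest increase among the collagens, and it was 2.92 on the slide shared with a vehicle array. HPTE at 24 hr gave 2.31-fold (1.21 ± 0.20, adjusted p = 3.9e-04). At 2 hr the changes were 0.77 ± 0.20, adjusted p = 0.0094 for E2, 0.73 ± 0.20, adjusted p = 0.0069 for BPA, and 0.64 ± 0.20, adjusted p = 0.015 for HPTE. Vehicle replicate 1 was the lowest vehicle array, and without it the E2 value at 2 hr was 0.54 (adjusted p = 0.051) and that of HPTE 0.41 (adjusted p = 0.088). The E2 call was also lost without E2 2 hr replicate 3, at 0.63 (adjusted p = 0.0503).

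Col6a1 (probe at chr10:76364050-76364109, minus strand) read 12386, 15270.4, and 16731 in vehicle, 53789 and 54666 at 24 hr of E2, 18010.0, 16713, and 21439 of BPA, and 26565, 24116, and 22045 of HPTE. Its 2 hr values were 15388, 16899.5, and 20359.8 after E2, 16238, 16966, and 19413 after BPA, and 16539.7, 15218, and 19017 after HPTE, with no call. It rose 3.69-fold at 24 hr of E2 (1.88 ± 0.15, adjusted p = 7.8e-08) and 1.65-fold at 24 hr of HPTE (0.72 ± 0.14, adjusted p = 0.0011).

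Col6a3 encodes the long chain of the type VI heterotrimer. Its probe at chr1:90671098-90671157 (minus strand) read 23686, 22667, and 22836 in vehicle, 26116, 31245, and 35298 2 hr after E2, 46264, 44801, and 33581 after BPA, and 43497, 47591, and 46524 after HPTE. At 24 hr it read 79890.3 and 81447 after E2, 21353, 18881, and 22226 after BPA, and 27054, 27475, and 25092 after HPTE. All 2 hr arrays lay above all vehicle arrays, and at 24 hr the E2 arrays lay far above, the HPTE arrays slightly above, and the BPA arrays below them. The changes were 0.41 ± 0.12, adjusted p = 0.019 for E2, 0.84 ± 0.12, adjusted p = 4.9e-05 for BPA, and 0.99 ± 0.12, adjusted p = 8.8e-06 for HPTE at 2 hr. At 24 hr they were 1.81 ± 0.13, adjusted p = 3.3e-08 for E2, -0.15, adjusted p = 0.45 for BPA, and 0.20, adjusted p = 0.21 for HPTE. The E2 call at 2 hr was lost with the slide term (0.41, adjusted p = 0.073) and without E2 2 hr replicates 2 or 3 or vehicle replicate 2, the lowest value being 0.31 (adjusted p = 0.095).

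The type IV genes lie in head-to-head pairs. Col4a1 and Col4a2, which form the common basement membrane trimer and start 21 bases apart on opposite strands of chromosome 8, rose together at 24 hr after E2 (1.001 ± 0.15, adjusted p = 3.2e-05 and 1.13 ± 0.17, adjusted p = 3.3e-05) and HPTE (0.54 ± 0.13, adjusted p = 0.0061 and 0.67 ± 0.15, adjusted p = 0.0037). Both HPTE calls were lost with the slide term. After BPA their values at 24 hr were 0.40, adjusted p = 0.064 and 0.40, adjusted p = 0.099. A second Col4a1 probe was called higher at 24 hr after E2 (0.71), BPA (0.75), and HPTE (0.78), so the BPA call of Col4a1 depends on the probe. A second Col4a2 probe gave 1.28, 0.36, and 0.78, with no call after BPA.

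Col4a5 and Col4a6, which start 1343 bases apart on opposite strands of chromosome X, both fell 24 hr after E2 (-0.54 ± 0.12, adjusted p = 0.0012 and -0.70 ± 0.11, adjusted p = 4.9e-05). Col4a6 was called in the other direction after HPTE (0.42 ± 0.10, adjusted p = 0.0048), and the HPTE and E2 groups differed by 1.12 ± 0.11, adjusted p = 1.1e-06. With the slide term the HPTE value was 0.35 (adjusted p = 0.052). Of the other Col4a6 probes, one was called at 24 hr of E2 (-0.41), BPA (0.43), and HPTE (0.46), and the other was not called (0.17, 0.11, and 0.26). At 2 hr BPA lowered both (-0.33 ± 0.11, adjusted p = 0.021 and -0.34 ± 0.10, adjusted p = 0.0094), calls that were lost without vehicle replicate 1, and for Col4a5 also without BPA replicates 1 or 2 and with the slide term. After normexp background correction the Col4a5 value turned to 0.36.

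Col4a3 and Col4a4 form with Col4a5 the trimer of the kidney filter. Col4a3 fell 24 hr after E2 (-0.52 ± 0.15, adjusted p = 0.0082) and HPTE (-0.70 ± 0.14, adjusted p = 0.0013), and the E2 value was -0.30 (adjusted p = 0.17) without E2 24 hr replicate 2. Col4a4 rose after E2 (0.76 ± 0.14, adjusted p = 2.5e-04), BPA (0.42 ± 0.13, adjusted p = 0.040), and HPTE (0.62 ± 0.13, adjusted p = 0.0018). The BPA call was lost with the slide term and without any single array but vehicle replicate 3. A second Col4a4 probe, matched only to a cDNA clone, fell 24 hr after E2 (-0.45), so the direction of Col4a4 depends on the probe.

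The multiplexins are basement membrane proteoglycans whose ends yield fragments that restrain vessel growth. Col15a1 read 1235, 1263, and 1334 in vehicle, 4368 and 4195 at 24 hr of E2, 2168, 1554, and 2294 of BPA, and 2880.1, 2901, and 2295 of HPTE. Its 2 hr values were 1202, 1144, and 1387 after E2, 1109, 1274, and 1508 after BPA, and 1186, 1204, and 1417 after HPTE, in the range of vehicle or near it. All 24 hr arrays lay above all vehicle arrays. It rose 3.35-fold after E2 (1.75 ± 0.17, adjusted p = 3.5e-07), 1.55-fold after BPA (0.63 ± 0.15, adjusted p = 0.012), and 2.10-fold after HPTE (1.07 ± 0.15, adjusted p = 9.1e-05). The E2 and HPTE calls held with the slide term and the BPA call did not (0.53, adjusted p = 0.11), nor did it hold without BPA 24 hr replicates 1 or 3 or vehicle replicate 1. A second probe, 170 bases away, was called after E2 (1.46) but not after BPA (0.18) or HPTE (0.20), so the rises after BPA and HPTE were seen with 1 of 2 probes. Col18a1 fell 2 hr after BPA (-0.42 ± 0.12, adjusted p = 0.0075) and rose 24 hr after HPTE (0.33 ± 0.12, adjusted p = 0.042), the latter lost when any of its 6 arrays was left out. Without BPA 2 hr replicate 1, the array high in leukocyte genes, the BPA value was -0.26 (adjusted p = 0.038).

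The FACIT collagens attach to fibril surfaces. Most tested members fell at 24 hr of E2 (2 higher and 4 lower of 7, median -0.89), led by Col22a1, Col9a2, and Col20a1, while Col12a1 (0.94 ± 0.25, adjusted p = 0.0045) and Col16a1 (0.76 ± 0.12, adjusted p = 3.8e-05) rose. HPTE at 24 hr raised Col12a1 (1.12 ± 0.23, adjusted p = 0.0017), Col14a1 (0.76 ± 0.26, adjusted p = 0.038), and Col16a1 (0.64 ± 0.10, adjusted p = 3.0e-04), and BPA raised Col12a1 (0.72 ± 0.23, adjusted p = 0.0498). All 3 calls of Col12a1 were lost with the slide term (HPTE at 0.79, adjusted p = 0.072), the E2 call also without E2 24 hr replicate 2 (0.73, adjusted p = 0.064), and the BPA call without any single array but BPA 24 hr replicate 2. Likewise, the HPTE call of Col14a1 was lost without HPTE 24 hr replicates 1 or 2 or vehicle replicates 1 or 2 and with the slide term.

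Col22a1, a chain known from muscle-tendon junctions, was the only collagen called in all 6 contrasts, always lower. It read 3049, 1039, and 939 in vehicle, then 223, 220.5, and 248 2 hr after E2, 448, 457, and 334 after BPA, and 395, 212, and 257 after HPTE. At 24 hr it read 153 and 176 after E2, 362, 488, and 484 after BPA, and 443, 438, and 452 after HPTE. No treated array reached any vehicle array, and vehicle replicate 1 stood well above the other vehicle arrays. The decreases were 6.24-fold (-2.64 ± 0.34, adjusted p = 3.5e-05) for E2, 3.52-fold (-1.81 ± 0.34, adjusted p = 4.3e-04) for BPA, and 5.17-fold (-2.37 ± 0.34, adjusted p = 3.6e-05) for HPTE at 2 hr.

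At 24 hr they were 8.75-fold (-3.13 ± 0.38, adjusted p = 3.7e-06) for E2, 3.26-fold (-1.71 ± 0.34, adjusted p = 0.0039) for BPA, and 3.24-fold (-1.69 ± 0.34, adjusted p = 0.0015) for HPTE. All 6 calls held without any single array and with the slide term. Vehicle replicate 1 also had the highest sum of sperm genes, all 5 tested of the 6 sperm genes were lower in all 6 contrasts, and without that array Col22a1 was still called in each, at -2.10, -1.27, and -1.83 for E2, BPA, and HPTE at 2 hr and -2.59, -1.16, and -1.15 at 24 hr. The part of the sperm transcripts in this result was not tested. A second Col22a1 probe, 70425 bases nearer the 3′ end of the gene, gave changes between -0.21 and 0.21 and no call, so the decrease was seen with 1 of 2 probes. The probe that gave it lies at chr15:71951550-71951609 on the minus strand (mm7).
Col22a1 probe used: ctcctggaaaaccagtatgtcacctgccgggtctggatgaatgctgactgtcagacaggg

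Col9a2, a type IX chain, read 487, 452, and 479 in vehicle and 100.1 and 145 24 hr after E2, a 3.92-fold fall (-1.97 ± 0.14, adjusted p = 2.1e-08). It read 424, 457, and 426 at 24 hr of BPA and 310.0, 301, and 388 of HPTE, of which the HPTE value alone was called (-0.51 ± 0.12, adjusted p = 0.0056). At 2 hr it read 443, 393, and 434 after E2, 305, 323, and 367 after BPA, and 386, 353, and 351 after HPTE, with calls for BPA (-0.51 ± 0.12, adjusted p = 0.0031) and HPTE (-0.38 ± 0.12, adjusted p = 0.020). The E2 arrays at 24 hr lay far below all others. The 2 hr HPTE call was lost without HPTE replicates 2 or 3 or vehicle replicates 1 or 3, both HPTE calls were lost with the slide term, and the BPA direction at 2 hr turned to 0.24 after normexp background correction.

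Col20a1 read 676, 488, and 561 in vehicle, 181 and 174 at 24 hr of E2, 366, 457, and 381 of BPA, and 325, 380.0, and 423 of HPTE. At 2 hr it read 463, 513, and 465 after E2, 343, 365, and 384 after BPA, and 420.3, 489, and 364 after HPTE. All 24 hr arrays lay below all vehicle arrays, and the HPTE arrays at 2 hr overlapped vehicle by 1 array. It fell 3.22-fold at 24 hr of E2 (-1.68 ± 0.15, adjusted p = 2.0e-07), and the other calls were -0.65 ± 0.14, adjusted p = 0.0011 for BPA and -0.43 ± 0.14, adjusted p = 0.015 for HPTE at 2 hr and -0.51 ± 0.14, adjusted p = 0.022 for BPA and -0.61 ± 0.14, adjusted p = 0.0032 for HPTE at 24 hr. The 2 hr BPA direction turned to 0.049 after normexp, the 2 hr HPTE call was lost without HPTE replicate 3 or vehicle replicate 1, and the 24 hr BPA and HPTE calls were lost with the slide term.

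Col8a2, a short-chain collagen of the sheet under corneal and vascular endothelium, showed the largest 2 hr increases among the collagens and fell at 24 hr of E2. Its probe at chr4:125758844-125758903 (plus strand) read 1748, 1339, and 1537 in vehicle, 2249.7, 1879, and 2679 2 hr after E2, 9657, 9374, and 3076 after BPA, and 7980.1, 6939, and 8077 after HPTE. At 24 hr it read 667 and 728 after E2, 1248, 957, and 1240.3 after BPA, and 1140.1, 1087, and 860.4 after HPTE. All 2 hr arrays lay above all vehicle arrays, BPA 2 hr replicate 3 less far than the other BPA arrays, and all 24 hr arrays lay below them. The 2 hr change was 4.26-fold for BPA (2.09 ± 0.32, adjusted p = 8.0e-05), 4.99-fold for HPTE (2.32 ± 0.32, adjusted p = 2.6e-05), and 0.55, adjusted p = 0.22 for E2. Without BPA 2 hr replicate 3 the BPA value was 2.63 (adjusted p = 2.9e-08). On slides shared with a vehicle array the values were 2.85 and 0.82 for BPA and 1.99 and 2.59 for HPTE. At 24 hr Col8a2 fell 2.20-fold after E2 (-1.14 ± 0.35, adjusted p = 0.011), which without E2 24 hr replicate 2 was -1.07 (adjusted p = 0.063).

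Col8a1, its partner chain, fell 24 hr after E2 (-1.54 ± 0.20, adjusted p = 7.9e-06) and 2 hr after BPA (-0.90 ± 0.18, adjusted p = 7.6e-04) and HPTE (-0.47 ± 0.18, adjusted p = 0.039), the HPTE call being lost without HPTE 2 hr replicates 2 or 3 or any vehicle array and with the slide term. The transmembrane collagen Col23a1 fell 24 hr after E2 (-1.53 ± 0.14, adjusted p = 3.1e-07) and HPTE (-0.54 ± 0.13, adjusted p = 0.0052), and Col13a1 fell at 24 hr after E2 (-1.04 ± 0.15, adjusted p = 2.6e-05), BPA (-0.54 ± 0.14, adjusted p = 0.018), and HPTE (-0.65 ± 0.14, adjusted p = 0.0022). With the slide term the HPTE value of Col23a1 was -0.46 (adjusted p = 0.056) and the BPA value of Col13a1 -0.60 (adjusted p = 0.073), neither called. The latter was also lost without BPA 24 hr replicate 1 or vehicle replicates 1 or 3. Col23a1 also fell 2 hr after BPA (-0.37 ± 0.13, adjusted p = 0.026), which was lost without BPA replicate 2 or vehicle replicate 2 and turned to 0.038 after normexp. Col7a1 (-0.71 ± 0.24, adjusted p = 0.017) and Col9a3 (-0.89 ± 0.31, adjusted p = 0.021) fell at 24 hr of E2 in calls that were lost with the slide term and without single arrays, vehicle replicate 3 and either E2 array for Col7a1, vehicle replicate 1 and E2 24 hr replicate 3 for Col9a3. Col17a1, of the hemidesmosomes of epithelium, and Col25a1, a brain collagen, were not called in any contrast with vehicle.

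With the scaling used here, most collagens differed between the 2 times after each compound, and under every other scaling this held for E2 alone. Treated uteri at 24 hr differed from those at 2 hr in 28 collagens after E2 (17 higher and 11 lower, 77.8%, against 56.0% of probes). After BPA they differed in 22 (19 and 3, 61.1%, against 48.4%), and after HPTE in 23 (18 and 5, 63.9%, against 54.1%). These contrasts do not use the vehicle arrays. For E2 the largest differences were Col6a2 (2.40), Col1a1 (2.03), and Col2a1 (1.82). For HPTE they were Col8a2 (-2.90), Col1a1 (2.39), and Col2a1 (2.10). For BPA they were Col8a2 (-2.52), Col1a1 (1.40), and Col3a1 (1.38). With the slide term the BPA count was 10, and the BPA values of Col1a1 and Col3a1 were 0.88 (adjusted p = 0.12) and 1.03 (adjusted p = 0.061). Without scaling the split was 11 and 4 for BPA and 9 and 9 for HPTE, and scaled to spike-ins it was 3 and 2 for BPA and 5 and 9 for HPTE. Col6a3 went up with time after E2 (1.40) and down after BPA (-0.99) and HPTE (-0.79).

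BPA and HPTE were given at the same dose by mass (750 µg), though not by number of molecules, and the pair was compared at both times over the 36 genes. Both hold a pair of phenol rings on a bridging carbon, which bears a trichloromethyl group in HPTE and methyl groups in BPA. At 2 hr limma called no collagen different between them (4 had an unadjusted p under 0.05, and 0.438% of all probes were called). The HPTE minus BPA difference was 0.23 (95% interval -0.45 to 0.90) for Col8a2, 0.16 (95% interval -0.10 to 0.41) for Col6a3, -0.56 (95% interval -1.27 to 0.16) for Col22a1, and -0.39 (95% interval -1.19 to 0.41) for Col1a1. Without BPA 2 hr replicate 3 the Col8a2 and Col1a1 differences took the other sign, at -0.32 (adjusted p = 0.33) and 0.12 (adjusted p = 0.89).

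At 24 hr HPTE exceeded BPA for Col5a1, 0.54 (95% interval 0.23 to 0.84), and Col16a1, 0.48 (95% interval 0.26 to 0.70), the 2 collagens called (10 had an unadjusted p under 0.05, and 4.08% of probes were called). Neither call held with quantile normalization, with the slide term, or without HPTE 24 hr replicates 1 or 2 or BPA 24 hr replicate 2. The difference was 0.66 (95% interval 0.24 to 1.09) for Col6a2, 0.38 (95% interval 0.08 to 0.67) for Col6a1, 0.44 (95% interval 0.12 to 0.75) for Col15a1, and -0.40 (95% interval -0.66 to -0.13) for Col9a2, none called. For Col1a1 it was 0.60 (95% interval -0.20 to 1.40) and for Col3a1 0.41 (95% interval -0.26 to 1.07), and without BPA 24 hr replicate 2 these were 0.24 (adjusted p = 0.84) and 0.17 (adjusted p = 0.88).

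E2 was given at a different and far lower dose, so its values stand beside those of BPA and HPTE as differences between these injections. At 2 hr BPA and E2 uteri differed in 3 collagens (19.0% of probes called) and HPTE and E2 uteri in 3 (16.6%). Col8a2 was higher than after E2 by 1.54 for BPA and 1.77 for HPTE, and Col6a3 by 0.42 and 0.58. The others were Col7a1 for BPA (-0.71) and Col27a1 for HPTE (0.53). Without E2 2 hr replicate 2, the array high in pancreas genes, the Col7a1 difference was -0.45 (adjusted p = 0.13), and without BPA 2 hr replicate 1 it was -0.49 (adjusted p = 0.15). The Col7a1, Col27a1, and BPA Col6a3 calls were lost with the slide term, that of Col27a1 also without E2 2 hr replicate 1 or HPTE 2 hr replicate 3, and that of Col6a3 without E2 2 hr replicates 1 or 2 or BPA 2 hr replicates 1 or 2. The Col8a2 calls and the HPTE call of Col6a3 held in each case. Without BPA 2 hr replicate 3 the BPA count rose to 12, and with the slide term it was 1.

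At 24 hr BPA and E2 uteri differed in 27 collagens (57.9% of probes called) and HPTE and E2 uteri in 21 (48.9%). Col6a2 was lower than after E2, with differences of -2.63 for BPA and -1.97 for HPTE, and so was Col6a3, with -1.96 and -1.60. Col24a1 was higher than after E2 by 2.28 after BPA and 1.71 after HPTE. With spike-in scaling the HPTE and E2 calls went from 12 higher and 9 lower to 2 and 7. For Col1a1, HPTE and E2 differed by -0.58 (95% interval -1.47 to 0.31), not called. Of the 17 collagens called higher after E2 and the 18 after HPTE at 24 hr, 15 were shared (Col14a1, Col18a1, and Col4a6 were called higher after HPTE and not after E2). The 4 higher and 3 lower after BPA and the 6 lower after HPTE all lay within the E2 calls, in lists that share the vehicle arrays. E2 called 31 of the 36 tested collagens at 24 hr, which leaves few outside its calls. The overlap among all probes was not counted, so this sharing is no result particular to collagens.

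Several collagens had a probe far upstream in the gene that changed apart from the 3′ probe. Among 30 further tested probes of 24 genes, the log2 change differed from that of the probe used by over 1 in 4, 3, and 4 pairs at 2 hr for E2, BPA, and HPTE, and in 9, 3, and 4 at 24 hr. These include clone probes of Col3a1 and Col1a2 and an upstream probe of Col6a3, which are shown because they moved within 2 hr while the 3′ probes of these genes moved less. The Col3a1 and Col1a2 clone probes are matched only to cDNA clones, 24342 and 26846 bases upstream of the 3′ probe of the gene, and the Col6a3 probe to an mRNA model, 35494 bases upstream. They lie at chr1:45561053-45561112 (plus strand), chr6:4466659-4466718 (plus strand), and chr1:90706592-90706651 (minus strand) of mm7. Whether they fall in exons or introns was not annotated here.
Col3a1 clone probe: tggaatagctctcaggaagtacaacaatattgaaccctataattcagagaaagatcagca
Col1a2 clone probe: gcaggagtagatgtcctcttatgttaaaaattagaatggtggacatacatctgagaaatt
Col6a3 upstream probe: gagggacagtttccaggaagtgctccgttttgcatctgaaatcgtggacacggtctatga

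The Col3a1 clone probe read 99.3, 96.5, and 64.3 in vehicle and 12.1, 11.05, and 76.0 at 2 hr of BPA, where 2 of 3 arrays had it well above background, and no E2 or HPTE array at 2 hr had it well above background. It was at least 5.68-fold lower 2 hr after E2 and at least 7.68-fold lower after HPTE. At 24 hr its changes were 0.10, 0.11, and -0.16 for E2, BPA, and HPTE, while the 3′ probe rose after E2 and HPTE. Another Col3a1 probe, matched to a RefSeq transcript and still farther upstream at 27228 bases, moved as the 3′ probe did at 24 hr (1.63 after E2 and 1.03 after HPTE, both called, and 0.75 after BPA, not called) and gave -0.69, -0.83, and -1.45 at 2 hr, the last 2 called. The Col1a2 clone probe read 328, 347, and 284 in vehicle and 130, 85.3, and 69.3 at 2 hr of E2, 78.7, 94.5, and 255 of BPA, and 62.7, 56.1, and 50.8 of HPTE. All treated 2 hr arrays lay below vehicle, with changes of -1.80, -1.36, and -2.50, all called, where the 3′ probe gave no call at 2 hr. At 24 hr of E2 the clone probe read 331 and 333, within the vehicle range, while the 3′ probe rose.

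The Col6a3 upstream probe rose at 2 hr by 1.41, 1.64, and 1.69 after E2, BPA, and HPTE, against 0.41, 0.84, and 0.99 for the 3′ probe. At 24 hr of E2 these probes lay closer together, at 1.92 and 1.81. Another Col6a3 probe, 46620 bases upstream, was well above background on all 2 hr and E2 24 hr arrays but on 1 of 3 vehicle arrays, so its change from vehicle is not given. A Col6a2 clone probe 5636 bases upstream rose by 1.15, 1.26, and 1.19 at 2 hr and by 1.47 at 24 hr of E2, where the 3′ probe rose by 3.17. The Col5a1 probe 48285 bases upstream rose by 0.35, 0.92, and 1.10 at 2 hr, all called. For Col1a1 the other probes agreed in direction at 24 hr of E2, at 3.13 and 3.08 against 2.09. For Col11a2 a second probe gave 0.26 at 24 hr of E2, where the probe used fell by more than 1. The second Col24a1 probe was well above background on 8 of 20 arrays only.

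**Figure D3:**
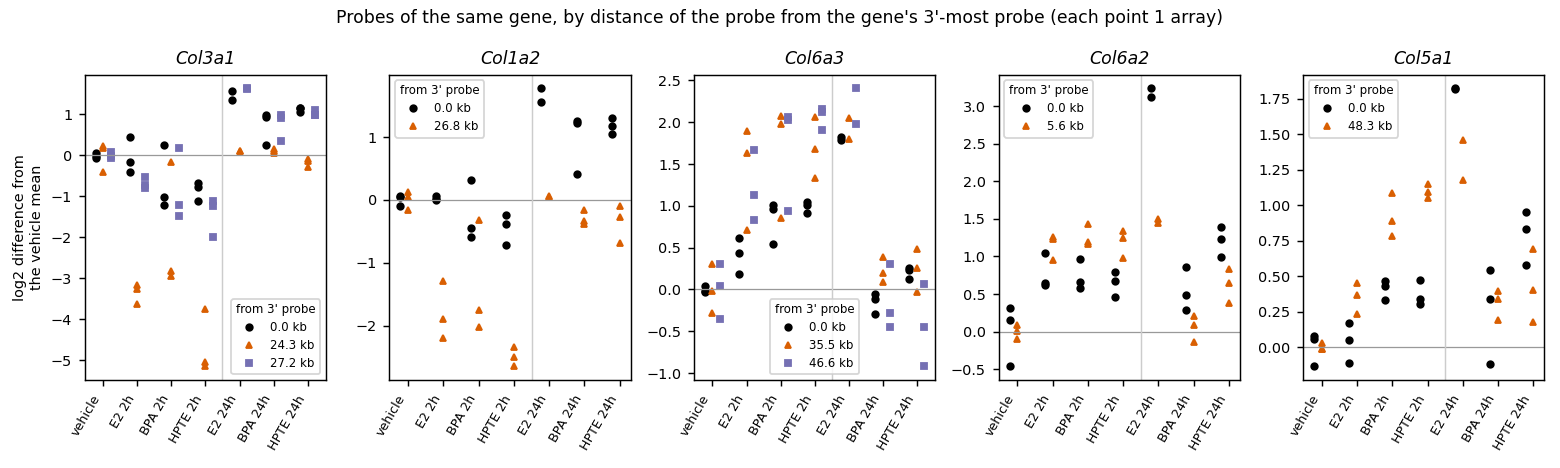
Log2 difference of each array from the vehicle mean for every tested probe of Col3a1, Col1a2, Col6a3, Col6a2, and Col5a1, with the groups along the horizontal axis. Each probe has its own color and symbol, labeled by its distance from the 3′-most probe of the gene. At 2 hr the clone probes of Col3a1 (at 24342 bases) and Col1a2 (at 26846) lie below 0 on every array and the upstream probes of Col6a3 above its 3′ probe, of which the farthest, at 46620 bases, was near background in vehicle, and at 24 hr of E2 the 3′ probes lie above 0.

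Promoters of the collagens were scanned over the 250 bases before the annotated start (RefSeq, GRCm38.p6), where 32 of the 40 had an entry. The estrogen receptor core GGTCA or TGACC lay in 12 of the 32 and in 35.2% of 32851 promoters, and the pair of cores 3 bases apart in none of the 32 and in 0.0639% of promoters. The GC box GGGCGG or CCGCCC lay in 18 of the 32 (32.7% of promoters), the CCAAT box in either orientation in 12 (33.8%), and the AP-1 site TGANTCA in 1 (6.75%), Col6a1. Promoters are given for Col6a1 and Col6a3, type VI genes that both rose at 24 hr of E2 and of which only Col6a3 was called at 2 hr. They are also given for Col8a2, with the largest early increases, and Col1a2, raised by all compounds at 24 hr. The promoter of Col6a2, the other type VI gene, is not shown and held the estrogen receptor core and the GC box. Capitals mark the motifs. A match is a run of letters in this window and no measure of binding.
Col6a1, chr10:76726045-76726294, minus strand, AP-1 site at base -90: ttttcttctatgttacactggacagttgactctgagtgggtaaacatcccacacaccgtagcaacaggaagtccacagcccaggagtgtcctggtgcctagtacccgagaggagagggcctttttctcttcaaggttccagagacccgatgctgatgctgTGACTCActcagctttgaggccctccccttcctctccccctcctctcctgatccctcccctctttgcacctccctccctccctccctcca
Col6a3, chr1:90843972-90844221, minus strand, none of these motifs: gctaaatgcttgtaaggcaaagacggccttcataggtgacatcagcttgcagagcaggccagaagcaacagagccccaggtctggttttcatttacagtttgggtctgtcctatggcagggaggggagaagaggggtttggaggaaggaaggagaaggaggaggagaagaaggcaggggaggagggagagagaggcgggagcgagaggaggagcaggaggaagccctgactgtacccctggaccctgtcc
Col8a2, chr4:126286544-126286793, plus strand, GC boxes at -93, -41, -19, and -15: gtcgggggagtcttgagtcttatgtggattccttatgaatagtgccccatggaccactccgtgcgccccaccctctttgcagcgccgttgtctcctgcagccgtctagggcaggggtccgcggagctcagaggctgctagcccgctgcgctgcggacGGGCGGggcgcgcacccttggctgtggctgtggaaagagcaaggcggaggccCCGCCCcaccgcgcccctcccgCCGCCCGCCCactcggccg
Col1a2, chr6:4505368-4505617, plus strand, GC boxes at -205 and -188 and a CCAAT box at -109: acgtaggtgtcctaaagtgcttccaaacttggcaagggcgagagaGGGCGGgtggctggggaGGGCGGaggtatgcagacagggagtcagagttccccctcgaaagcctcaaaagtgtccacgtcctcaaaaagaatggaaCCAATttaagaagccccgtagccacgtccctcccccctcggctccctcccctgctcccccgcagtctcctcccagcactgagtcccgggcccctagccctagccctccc

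Most enzymes and helpers that make collagen rose at 24 hr of E2. Of 29 tested processing genes, 21 rose and 2 fell after E2 (median log2 change 0.97), 16 rose after HPTE (median 0.44), and 5 rose after BPA (median 0.20). At 2 hr the counts were 5 higher and 1 lower for E2, 8 and 5 for BPA, and 10 and 5 for HPTE. Among all probes, 26.3%, 14.9%, and 5.09% were higher at 24 hr after E2, HPTE, and BPA, and 11.1%, 19.3%, and 19.9% at 2 hr after E2, BPA, and HPTE. In the same orders, 37.6%, 19.1%, and 8.03% were lower at 24 hr and 17.0%, 30.2%, and 28.2% at 2 hr. The share of processing genes called lower at 2 hr was thus below that of all probes after each compound. Of the E2 calls at 24 hr, 19 of 23 held without any single array and 22 with the slide term, against 10 and 5 of 16 for HPTE and 1 and 0 of 5 for BPA. At 2 hr these were 3 and 3 of 6 for E2, 7 and 10 of 13 for BPA, and 9 and 10 of 15 for HPTE.

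The prolyl 4-hydroxylase subunit P4ha3 rose in all 2 hr groups (2.41 ± 0.48, adjusted p = 0.0017 for E2, 2.57 ± 0.48, adjusted p = 4.9e-04 for BPA, and 2.79 ± 0.48, adjusted p = 2.2e-04 for HPTE) and at 24 hr of E2 (2.37 ± 0.54, adjusted p = 0.0013) and HPTE (1.40 ± 0.48, adjusted p = 0.037), the last lost with the slide term and without HPTE 24 hr replicates 1 or 2 or vehicle replicates 1 or 3. P4ha2, of the same enzyme family, read 5332, 4907, and 4934 in vehicle, 6801, 6989.6, and 7045 2 hr after E2, 46841, 46862, and 9566 after BPA, and 50996, 59318, and 47143 after HPTE. BPA 2 hr replicate 3 lay well below the other BPA arrays, and all 2 hr arrays lay above vehicle. The changes were 0.46, adjusted p = 0.45 for E2, 2.45 ± 0.41, adjusted p = 1.8e-04 for BPA, and 3.37 ± 0.41, adjusted p = 8.7e-06 for HPTE. Colgalt2, a collagen galactosyltransferase, rose at 2 hr after E2 (0.88 ± 0.13, adjusted p = 1.9e-04), BPA (1.60 ± 0.13, adjusted p = 4.5e-07), and HPTE (1.33 ± 0.13, adjusted p = 1.8e-06). Of the lysyl hydroxylases, Plod2 rose 2 hr after E2 (0.97 ± 0.13, adjusted p = 5.2e-05) and Plod1 2 hr after HPTE (1.43 ± 0.20, adjusted p = 2.8e-05). Plod1 also rose 2 hr after BPA (1.28) and E2 (0.57) and 24 hr after E2 (1.18) and HPTE (0.66). Its 2 hr E2 and 24 hr HPTE calls were lost without single arrays and with the slide term. Plod2 rose at 24 hr of E2 (0.36), and Plod3 2 hr after BPA (0.28) and HPTE (0.25), calls that were lost without single arrays.

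The lysyl oxidase Lox, which cross-links fibrils, fell 2 hr after BPA (-0.88 ± 0.18, adjusted p = 9.8e-04) and HPTE (-1.24 ± 0.18, adjusted p = 4.9e-05), as did Pcolce (-0.58 ± 0.23, adjusted p = 0.045 and -0.67 ± 0.23, adjusted p = 0.024) and Pcolce2 (-0.64 ± 0.23, adjusted p = 0.031 and -0.58 ± 0.23, adjusted p = 0.047), which speed the removal of procollagen ends. Loxl3, of the Lox family, fell 2 hr after E2 (-0.46 ± 0.15, adjusted p = 0.033), BPA (-0.51), and HPTE (-0.52), all called. The Lox calls and the HPTE call of Loxl3 held with the slide term and without any single array. Those of Pcolce and Pcolce2 and the E2 call of Loxl3 did not. The BPA call of Loxl3 held with the slide term and was lost without BPA 2 hr replicate 2. At 24 hr of E2 Pcolce (1.68 ± 0.25, adjusted p = 3.5e-05) and the prolyl 3-hydroxylase P3h1 (1.68 ± 0.15, adjusted p = 1.6e-07) rose, and Tll1, a procollagen C-proteinase (-1.17 ± 0.24, adjusted p = 5.8e-04), and P3h2 (-0.52 ± 0.15, adjusted p = 0.0065) fell. Sparc, which binds collagen (0.72 ± 0.22, adjusted p = 0.041 and 1.21 ± 0.22, adjusted p = 6.8e-04), and Adamts2, the procollagen N-proteinase (0.63 ± 0.19, adjusted p = 0.044 and 0.94 ± 0.19, adjusted p = 0.0020), rose at 24 hr of BPA and HPTE, and after BPA so did P3h1 (0.46 ± 0.13, adjusted p = 0.033) and Plod3 (0.46 ± 0.10, adjusted p = 0.0056). The P3h2 call was lost without E2 24 hr replicate 3, and of these BPA calls that of Plod3 alone held without any single array. The HPTE call of Adamts2 held without any single array but was lost with the slide term (0.63, adjusted p = 0.071). At 24 hr of E2, Sparc (1.66), Adamts2 (1.38), and Plod3 (0.74) also rose, and at 24 hr of HPTE so did P3h1 (0.88) and Plod3 (0.59). These further E2 and HPTE calls held without any single array and with the slide term.

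Of 9 tested collagen receptors, 3 fell 2 hr after E2, 3 after BPA, and 2 after HPTE, where 17.0%, 30.2%, and 28.2% of all probes were lower, so the BPA and HPTE counts were near the background. At 24 hr 1 rose and 4 fell after E2, 1 rose after BPA, and 1 fell after HPTE, beside 37.6%, 8.03%, and 19.1% of probes lower. Itga1, the integrin chain that pairs with beta 1 to bind type IV collagen, fell at 2 hr after E2 (-1.10 ± 0.28, adjusted p = 0.0077), BPA (-1.43 ± 0.28, adjusted p = 5.8e-04), and HPTE (-1.49 ± 0.28, adjusted p = 3.8e-04) and at 24 hr after E2 (-1.16 ± 0.31, adjusted p = 0.0040). Itga11, a fibroblast integrin for fibrillar collagen, fell 24 hr after E2 (-2.55 ± 0.22, adjusted p = 1.2e-07) and HPTE (-0.65 ± 0.20, adjusted p = 0.018), and Itga10 after E2 (-1.40 ± 0.21, adjusted p = 3.2e-05). Itga2 fell 2 hr after E2 (-0.67 ± 0.20, adjusted p = 0.019) and rose at 24 hr (1.46 ± 0.22, adjusted p = 3.1e-05). The receptor kinase Ddr2 fell at 2 hr of E2 (-0.26 ± 0.07, adjusted p = 0.014), BPA (-0.50 ± 0.07, adjusted p = 4.6e-05) and HPTE (-0.38 ± 0.07, adjusted p = 4.3e-04) and rose 24 hr after BPA (0.23 ± 0.07, adjusted p = 0.047), and Ddr1 fell 2 hr after BPA (-0.52 ± 0.15, adjusted p = 0.010). Ddr2 also fell 24 hr after E2 (-0.93), a call that held without any single array and with the slide term. The 24 hr calls of Itga11 for HPTE and Ddr2 for BPA were lost with the slide term and without single arrays, and the E2 calls of Itga1 at 24 hr (without E2 24 hr replicate 3), Itga2 at 2 hr (without E2 2 hr replicates 1 or 3 or vehicle replicate 1), and Ddr2 at 2 hr (without vehicle replicates 1 or 3) and the Ddr1 call (without BPA 2 hr replicate 1 or vehicle replicate 1) were lost without single arrays.

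**Figure D4:**
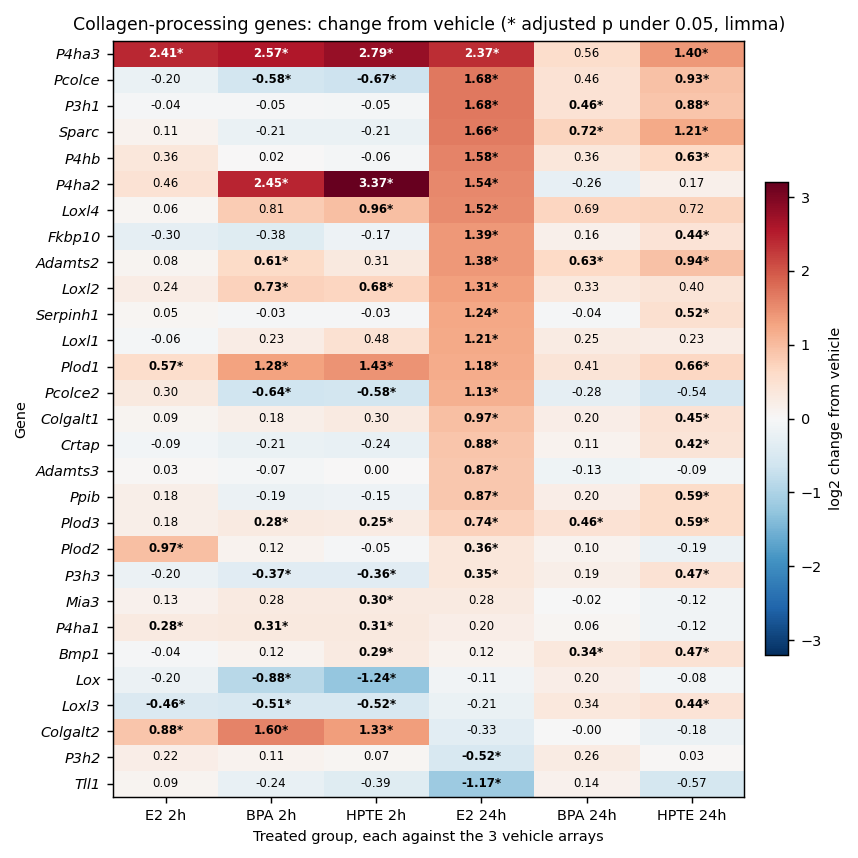
Heat map of the log2 change from vehicle of the 29 tested collagen processing genes in the 6 treated groups, with an asterisk where limma called the change. P4ha3 is higher in 5 columns with a call, P4ha2 is highest at 2 hr of BPA and HPTE, and the E2 24 hr column holds 21 genes called higher.

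At 24 hr the called markers of smooth muscle and epithelium all rose, and those of stroma and endothelium went in both directions. Among all probes at 24 hr, 26.3%, 5.09%, and 14.9% were higher and 37.6%, 8.03%, and 19.1% lower after E2, BPA, and HPTE. At 2 hr, 30.2% were lower after BPA and 28.2% after HPTE. Of 6 smooth muscle genes, 5 rose after E2, 6 after HPTE, and 2 after BPA, with sums of 672166 to 745937 in vehicle, 1071140 to 1160390 in E2, 979673 to 1129120 in HPTE, and 806889 to 936592 in BPA uteri at 24 hr. Of 5 epithelial genes, 4 rose after E2, 5 after HPTE, and 2 after BPA, with sums of 132490 to 154967 in vehicle, 287646 to 331079 in E2, 228362 to 249761 in HPTE, and 185201 to 200165 in BPA uteri at 24 hr. Of 5 stromal genes, 1 rose and 3 fell after E2, and 1 rose each after BPA and HPTE, with sums of 120232 to 134371 in vehicle, 120730 to 131175 in E2, 155285 to 180550 in HPTE, and 150795 to 166059 in BPA uteri at 24 hr, the HPTE and BPA arrays all above vehicle. At 2 hr, 4 stromal genes fell after BPA and 4 after HPTE, where 1 rose, and 3 epithelial genes fell after BPA (77755 to 117749). Of 5 endothelial genes, 3 fell at 24 hr of E2 (9614 to 10211, against 12735 to 13510 in vehicle), and 2 rose after BPA and 2 rose and 1 fell after HPTE. Of 5 adipocyte genes, 3 fell at 24 hr of E2 (14241 to 18360, against 41421 to 84663 in vehicle). The sum of 4 squamous basal genes was 15209 and 97973 in the E2 24 hr arrays, 816 to 29839 at 24 hr of HPTE, and 3309 to 6494 in vehicle, and 1 of the 3 tested rose after E2. The smooth muscle, epithelial, and stromal markers were well above background on every array. The part of all these markers in the collagen changes was not tested.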

How the data were processed

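RNA of single uteri was labeled with Cy3 and hybridized to 20 Agilent arrays. The deposited scanner files hold spot intensity in arbitrary units, made by the authors with Feature Extraction 9.5, background subtracted within each array and not scaled between arrays. The deposited table of processed values held the same intensities on all 20 arrays (relative tolerance 1e-06). The deposited flags are of type other and mark control, outlying, saturated, and well above background spots. Each array had 45018 spots, 72.7% to 81.3% of probes were well above background, and the number of arrays limits the precision.

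Control and outlier spots were left out, spots of a probe were averaged, and log2 intensity was centered on the 75th percentile of the array (1320 to 2046, median 1679, the level to which printed intensities were scaled back). Tests covered probes with all arrays of some group well above background, a value in each group, and no more than 2 missing arrays (32456 of 41174 probes, 69 of 82 collagen probes). limma 3.58.1 in R 4.3.3 was fitted over the 7 groups (prior degrees of freedom 1.903), with two-sided tests. Calls had p under 0.05 after Benjamini-Hochberg adjustment over all tested probes of a contrast. Intervals are 95%. A group with no array of a probe well above background gives a bound only. The arrays lay on 6 slides, and the slide was modeled as an alternative. Nothing used here shows separate experiments behind the replicates, so p values measure the spread between these uteri.

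Named were all tested fibrillar, type IV, type VI, and multiplexin genes, up to 3 largest called increases and decreases per contrast of the other classes and of the processing and receptor lists, and, with values on every array, the 12 largest among collagens called in at least 4 contrasts or changed 2-fold. The further probes and remaining genes were named after their values were seen. The members and lists were chosen with earlier results of these data known. Probe positions are on mm7 per the file headers, and promoters come from RefSeq (GRCm38.p6). The fit was tested on simulated data.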

Additional observations from a re-analysis of the deposited data

Results flagged for a closer look

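The change of collagens from vehicle differed between the times after each compound, by limma's contrast of the treated groups at 24 and 2 hr, in 28 genes for E2, 22 for BPA, and 23 for HPTE. These are 77.8%, 61.1%, and 63.9% of the tested collagens, against 56.0%, 48.4%, and 54.1% of all probes. With the slide as a term the BPA count was 10. After HPTE, Col2a1 (2.10 on the log2 scale between the times) and Col3a1 (1.98) were called lower at 2 hr and higher at 24 hr. Neither the 2 hr nor the 24 hr call of these genes against vehicle held with the slide as a term (Col2a1 -0.72, adjusted p = 0.11, and 0.75, adjusted p = 0.20, and Col3a1 -0.64, adjusted p = 0.16, and 0.81, adjusted p = 0.17, at 2 and 24 hr), whereas the difference between the times did (1.46 and 1.44). A second Col2a1 probe gave no call at either time. Groups of 2 or 3 arrays were too small to test for single outlying arrays.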

How the results depend on the processing

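The count for E2 at 24 hr (31 collagens) ran from 23 to 31 under the other settings and from 27 to 31 without single arrays, and E2 at 24 hr against 2 hr (28) from 22 to 29. Of the 88 calls against vehicle, 88 held with array weights and with probes well above background on all 20 arrays, 87 with the slide as a random block, 82 with no filter on dim probes, 78 with quantile normalization, 74 with the probes of a gene averaged, 66 with no scaling, 58 with the slide as a term, 48 after normexp, and 36 with spike-in scaling. Why the counts moved was not tested.

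Counts that moved by over 1.5 times were as follows. For E2 at 2 hr (3): 6 with quantile normalization, 9 with no scaling, 1 with spike-in scaling, 5 with array weights, 6 with probes averaged, and 1 to 3 without single arrays. For BPA at 2 hr (12): 7 with no scaling, 3 with spike-in scaling, 7 after normexp, and 10 to 18 without single arrays. For HPTE at 2 hr (11): 6 with no scaling, 3 with spike-in scaling, 4 after normexp, 7 with the slide term, and 4 to 8 without single arrays. For BPA at 24 hr (7): 4 with no scaling, 1 with spike-in scaling, 0 after normexp, 1 with only the compared groups, 1 with the slide term, 15 with array weights, and 1 to 13 without single arrays. For HPTE at 24 hr (24): 4 with spike-in scaling, 12 after normexp, 9 with the slide term, and 20 to 24 without single arrays.

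BPA at 24 hr against 2 hr (22) gave 5 with spike-in scaling and 10 with the slide term. HPTE at 24 hr against 2 hr (23) gave 14 with spike-in scaling and 14 after normexp. BPA against E2 at 2 hr (3) gave 5 with no scaling, 1 with spike-in scaling, 0 with only the compared groups, 1 with the slide term, and 1 to 12 without single arrays. HPTE against E2 at 2 hr (3) gave 11 without scaling and 1 scaled to spike-ins. HPTE against BPA at 2 hr (0) gave 12 after normexp and 0 to 1 without single arrays. BPA and HPTE against E2 at 24 hr (27 and 21) gave 16 and 9 with spike-in scaling. HPTE against BPA at 24 hr (2) gave 0 with quantile normalization, no scaling, spike-in scaling, normexp, only the compared groups, or the slide term, 1 with no filter on dim probes, 6 with array weights, and 0 to 2 without single arrays. After normexp the 2 hr BPA changes of Col20a1 (0.049), Col23a1 (0.038), Col4a5 (0.36), and Col9a2 (0.24) reversed, where the median of all probes was 0.48.

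Same-numbered arrays did not deviate together (correlations of deviations -0.36 to 0.33, median -0.05, 57 pairs). With a replicate block 85 of the 88 calls held, and HPTE against BPA at 24 hr gave 1 call.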

Other observations

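The gene now called Col26a1, listed on the array under an older name and so outside the naming rule, had log2 changes of -0.58, -0.18, and 0.15 at 2 hr of E2, BPA, and HPTE (none called) and of -1.81, -0.83, and -0.73 at 24 hr, all called by limma. Col4a3bp, which the rule found but which encodes a lipid transfer protein, fell 24 hr after E2 (-0.97) and HPTE (-0.41) and 2 hr after BPA (-0.43) and HPTE (-0.31), and its changes after E2 at 2 hr (-0.16) and BPA at 24 hr (-0.20) were not called.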
